A study of Homo sapiens with 4 samples.

Results

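The 10 genes described here encode the insulin-like growth factor (IGF) system: the ligands IGF1 and IGF2, the receptors IGF1R and IGF2R, and the binding proteins IGFBP2 to IGFBP7. They were taken by symbol from the deposited gene counts, and all 10 were found among the 23228 genes listed. IGF1 and IGF2 act through IGF1R, a receptor tyrosine kinase that signals by way of the IRS adaptors to PI3K and AKT and to RAS and ERK. IGF2R has no kinase; it takes IGF2 to the lysosome for degradation and sorts lysosomal enzymes that carry mannose 6-phosphate. The binding proteins are secreted, hold IGFs away from the receptor and release them when cut by proteases. In Ewing sarcoma, IGF1R signalling is known to be needed for transformation by the fusion protein EWS-FLI1, and IGFBP3 is known as a gene that this fusion represses.

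RNA was sequenced from A673, an established cell line labelled Ewing sarcoma with muscle as the tissue. The groups were siSMPD1 (siRNA against SMPD1, the gene of acid sphingomyelinase), its scrambled-siRNA control (control_SMPD1), siGPR64 (siRNA against GPR64, an adhesion G protein-coupled receptor now named ADGRG2) and its scrambled-siRNA control (control_GPR64). Each group is 1 library, harvested after 48 h of lipid transfection, and all cells grew in medium with 10% fetal bovine serum, 10 micrograms of insulin per ml and beta-mercaptoethanol. High insulin can itself engage IGF1R, so every library, controls included, comes from cells with a ligand of this pathway in the medium.

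Each group being a single library, every ratio compares 2 libraries and none has a replicate to check it against. Counts were scaled to library size (CPM), and each value above 0 carries an exact 95% interval that covers counting error only. Gene counts totalled 18849264 in siSMPD1 and 19614913 in control_SMPD1, but 2534861 in siGPR64 and 2882854 in control_GPR64, so the GPR64 pair is the less precise one. For a count of 0 the limit taken is 3 counts, which is 0.159 and 0.156 CPM in siSMPD1 and control_SMPD1, and 1.18 and 1.03 CPM in siGPR64 and control_GPR64. SMPD1 was 4.52-fold lower in siSMPD1 than in control_SMPD1 (4.29 to 4.76) and GPR64 2.16-fold lower in siGPR64 than in control_GPR64 (1.76 to 2.68). The other target differed more in that pair: SMPD1 was 4.38-fold higher in siGPR64 than in control_GPR64 (3.68 to 5.28). GPR64 was also 3.57-fold lower in control_GPR64 than in control_SMPD1 (3.19 to 4.01). SMPD1 stood lower in control_GPR64 (52.8 CPM) than in the SMPD1 knockdown itself (91.7 CPM), so the controls were not alike. Of 8 fixed Ewing sarcoma markers 7 were at 1 CPM or more in every library and CD99 was listed at 0. Reads without a unique place were not counted for any gene, and their part in the CD99 value was not tested. The 0 is therefore no statement that CD99 was not expressed. Of 10 skeletal muscle markers 2 reached 1 CPM in each library, and MYOD1 and MYOG were at 0 in all 4. In bulk RNA, fewer cells of a kind and less RNA per cell cannot be told apart.

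The windows before 4 gene starts are shown because these members had the largest ratios to a paired control: IGFBP4, IGFBP5 and IGF2R in the GPR64 pair and IGF1 in the SMPD1 pair. Each is the 250 bases before the start, 5′ to 3′ on the gene's strand, from RefSeq (GRCh38.p14). That build differs from the hg19 build named for the counts. The IGFBP4 window is chr17:40443200-40443449 (plus strand), the IGFBP5 window chr2:216695550-216695799 (minus strand), the IGF2R window chr6:159968832-159969081 (plus strand) and the IGF1 window, before the more upstream of 2 listed starts, chr12:102481748-102481997 (minus strand). Capitals mark matches, on either strand, to any of 7 motifs: the TATA box TATAAA, the GC box GGGCGG, the EWS-FLI1 repeat core GGAAGGAA, the cAMP response element TGACGTCA, the ATF4 core TGATGNAA, the forkhead core TGTTTAC and the E-box CACGTG.
IGFBP4: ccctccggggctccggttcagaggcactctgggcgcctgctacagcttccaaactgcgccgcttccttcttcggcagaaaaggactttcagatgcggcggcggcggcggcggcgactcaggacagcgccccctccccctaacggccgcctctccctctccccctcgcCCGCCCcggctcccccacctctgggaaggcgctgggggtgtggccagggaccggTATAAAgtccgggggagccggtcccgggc
IGFBP5: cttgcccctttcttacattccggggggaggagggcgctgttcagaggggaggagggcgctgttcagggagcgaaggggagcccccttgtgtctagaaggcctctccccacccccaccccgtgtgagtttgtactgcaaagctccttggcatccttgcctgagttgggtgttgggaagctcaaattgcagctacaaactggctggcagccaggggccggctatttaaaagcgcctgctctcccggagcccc
IGF2R: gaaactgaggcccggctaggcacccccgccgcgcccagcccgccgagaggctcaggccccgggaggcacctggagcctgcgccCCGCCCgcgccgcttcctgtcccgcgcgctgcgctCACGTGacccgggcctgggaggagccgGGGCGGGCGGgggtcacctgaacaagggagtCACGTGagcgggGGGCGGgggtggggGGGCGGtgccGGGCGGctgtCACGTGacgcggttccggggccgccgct
IGF1: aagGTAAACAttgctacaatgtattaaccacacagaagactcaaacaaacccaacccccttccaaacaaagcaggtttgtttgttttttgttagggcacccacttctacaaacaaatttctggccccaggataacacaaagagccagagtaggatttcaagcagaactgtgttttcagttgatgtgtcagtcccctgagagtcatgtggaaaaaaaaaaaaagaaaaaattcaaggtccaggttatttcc

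RefSeq windows were found for 8 of the 10 genes, 11 windows in all; IGF2 and IGFBP7 had none in the table. The IGFBP4 window holds TATAAA 29 bases before the start, a motif found in 10.7% of all 35116 windows of this length. The IGFBP5 window holds none of the 7 motifs as spelled. The IGF2R window holds the E-box at 3 places, and 6.34% of all windows hold it at least once. It also holds the GC box at 6 places, with 1 pair overlapping, a motif that 42.6% of all windows hold. The IGFBP4 window has 1 GC box. The IGF1 window holds the forkhead core once, against 2.98% of all windows. The EWS-FLI1 repeat core was in none of the 11 member windows and in 3.06% of all windows. The cAMP response element and the ATF4 core were in none either, with 1.65% and 3.14% over all windows. These matches describe letters, not binding.

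Among the binding protein genes, IGFBP2 was the most abundant member by a wide margin, IGFBP4 and IGFBP5 differed in opposite directions in the GPR64 pair, and IGFBP3 and IGFBP7 were barely detected. Levels were compared between genes per length of transcript, as CPM per kilobase of the union of annotated exons (RPKM). IGFBP2, a binding protein with an RGD motif that can engage integrins, stood at 453 RPKM in siSMPD1, 377 in control_SMPD1, 482 in siGPR64 and 526 in control_GPR64. It made up 97.2%, 97.3%, 97.5% and 98.2% of the summed RPKM of the 6 binding proteins in the same order of libraries. IGF2R came next in every library, between 14.4 and 24.9 RPKM, and IGFBP2 lay 17.2 to 36.5 times above it. IGF1R lay between 4.07 and 5.28 RPKM, IGF1 between 2.36 and 4.07, IGFBP4 between 2.96 and 8.73, IGFBP5 between 1.26 and 3.75 and IGFBP6 between 2.04 and 3.51. The order among these 5 genes differed between libraries. With the longest annotated transcript as the length, IGFBP2 and IGF2R kept first and second place in each library.

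**Figure D1:**
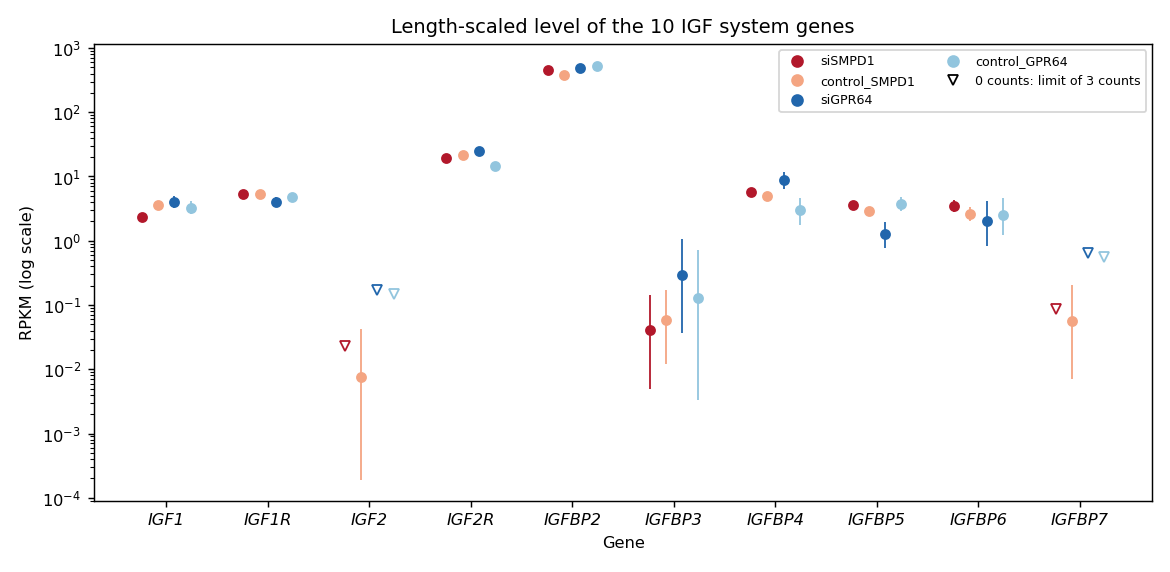
Length-scaled level (RPKM, log axis) of the 10 IGF system genes, 1 point per library with a vertical line for the exact 95% Poisson counting interval; open triangles mark libraries with 0 counts at the limit that 3 counts would give. IGFBP2 lies between 377 and 526 RPKM, IGF2R between 14.4 and 24.9, and IGF2, IGFBP3 and IGFBP7 lie at or below 0.298 RPKM wherever a read was counted.

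Of the 10 genes, 3 had at most 3 reads in any library. IGFBP3, the main carrier of IGFs in serum, had 2 reads in siSMPD1, 3 in control_SMPD1, 2 in siGPR64 and 1 in control_GPR64. In the deeper pair this corresponds to 0.106 CPM in siSMPD1 and 0.156 CPM in control_SMPD1. IGFBP7, a low-affinity member also known as a vascular matrix protein, had 2 reads in control_SMPD1 and 0 in the other 3 libraries. IGF2, the fetal growth ligand, had 1 read in control_SMPD1 and 0 in the other 3. No ratio is given for these 3 genes, since all their counts are at or under the limit of 3. A difference between libraries was not detectable for them at this depth.

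The low IGF2 and IGFBP7 counts carry a reservation about overlapping annotation. In the GENCODE annotation (GRCh38) 20.6% of the exonic bases of IGF2 are shared with the readthrough gene INS-IGF2, which the files list separately at 0 in all 4 libraries. A counter may set reads on shared bases aside as ambiguous, and the part of this in the low IGF2 count was not tested. For IGFBP7, 14.0% of the exonic bases are shared with POLR2B on the opposite strand. POLR2B had 2573 reads in siSMPD1, 2650 in control_SMPD1, 311 in siGPR64 and 492 in control_GPR64. The strand setting of the counts is not stated, and the part of this overlap in the low IGFBP7 count was not tested. INS, the insulin gene beside IGF2 on chromosome 11, and the imprinted non-coding RNA H19, named after its values were seen, were also at 0 in all 4 libraries. IGFBP1, which lies next to IGFBP3 on chromosome 7, was at 0 as well.

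IGFBP5, a binding protein that attaches to extracellular matrix, had 7.83 CPM in siGPR64 (20 reads) and 23.3 CPM in control_GPR64 (68 reads). It had 22.4 CPM in siSMPD1 (423 reads) and 18.1 CPM in control_SMPD1 (347 reads). The siGPR64 library stood alone at the low end, and its counting interval (4.79 to 12.1 CPM) overlapped none of the other 3. IGFBP5 was 2.93-fold lower in siGPR64 than in its paired control (1.78 to 5.17) and 2.3-fold lower than in control_SMPD1 (1.47 to 3.82). Against both controls, then, its ratio was past 2-fold.

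IGFBP4, which restrains IGF signalling and is cut by the protease PAPPA, had 19.2 CPM in siGPR64 (49 reads) and 6.51 CPM in control_GPR64 (19 reads). It had 12.5 CPM in siSMPD1 (236 reads) and 10.9 CPM in control_SMPD1 (209 reads). Here siGPR64 was highest and control_GPR64 lowest, the reverse of the ends for IGFBP5. The upper end for IGFBP5 was near level, with siSMPD1 1.04-fold lower than control_GPR64 (0.792 to 1.35). Against control_SMPD1, siSMPD1 was 1.24-fold higher for IGFBP5 (1.07 to 1.43). For IGFBP4 it was 1.15-fold higher (0.95 to 1.39), with equality inside the interval. IGFBP4 was 2.9-fold higher in siGPR64 than in its paired control (1.71 to 5.3) but 1.76-fold higher against control_SMPD1 (1.27 to 2.42), short of 2-fold. Control_GPR64 was itself 1.67-fold lower than control_SMPD1 (1.04 to 2.83) for this gene.

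The 2 genes can be read against each other without any scaling of the libraries. There were 2.45 IGFBP4 reads per IGFBP5 read in siGPR64 against 0.279 in control_GPR64, and 0.558 in siSMPD1 against 0.602 in control_SMPD1. IGFBP2, which neighbours IGFBP5 on chromosome 2, did not share its low value in siGPR64: there were 96.5 IGFBP2 reads per IGFBP5 read in siGPR64 and 31.7 to 35.4 in the other 3 libraries. IGFBP2 itself was at 710 CPM in siSMPD1, 591 in control_SMPD1, 756 in siGPR64 and 826 in control_GPR64. It was 1.2-fold higher in siSMPD1 than in control_SMPD1 (1.17 to 1.23) and 1.09-fold lower in siGPR64 than in control_GPR64 (1.03 to 1.16). Both ratios are smaller than that between the controls, where control_GPR64 was 1.4-fold above control_SMPD1 (1.34 to 1.46).

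IGFBP6, a binding protein that prefers IGF2, was at 4.72 CPM in siSMPD1, 3.54 in control_SMPD1, 2.74 in siGPR64 and 3.43 in control_GPR64. Only 7 and 10 reads stood behind the values of siGPR64 and control_GPR64, and the counting intervals of all 4 libraries overlapped. Its log2 ratio was 0.41 in the SMPD1 pair (-0.06 to 0.89) and -0.30 in the GPR64 pair (-1.95 to 1.22). Equality lies inside both intervals.

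**Figure D2:**
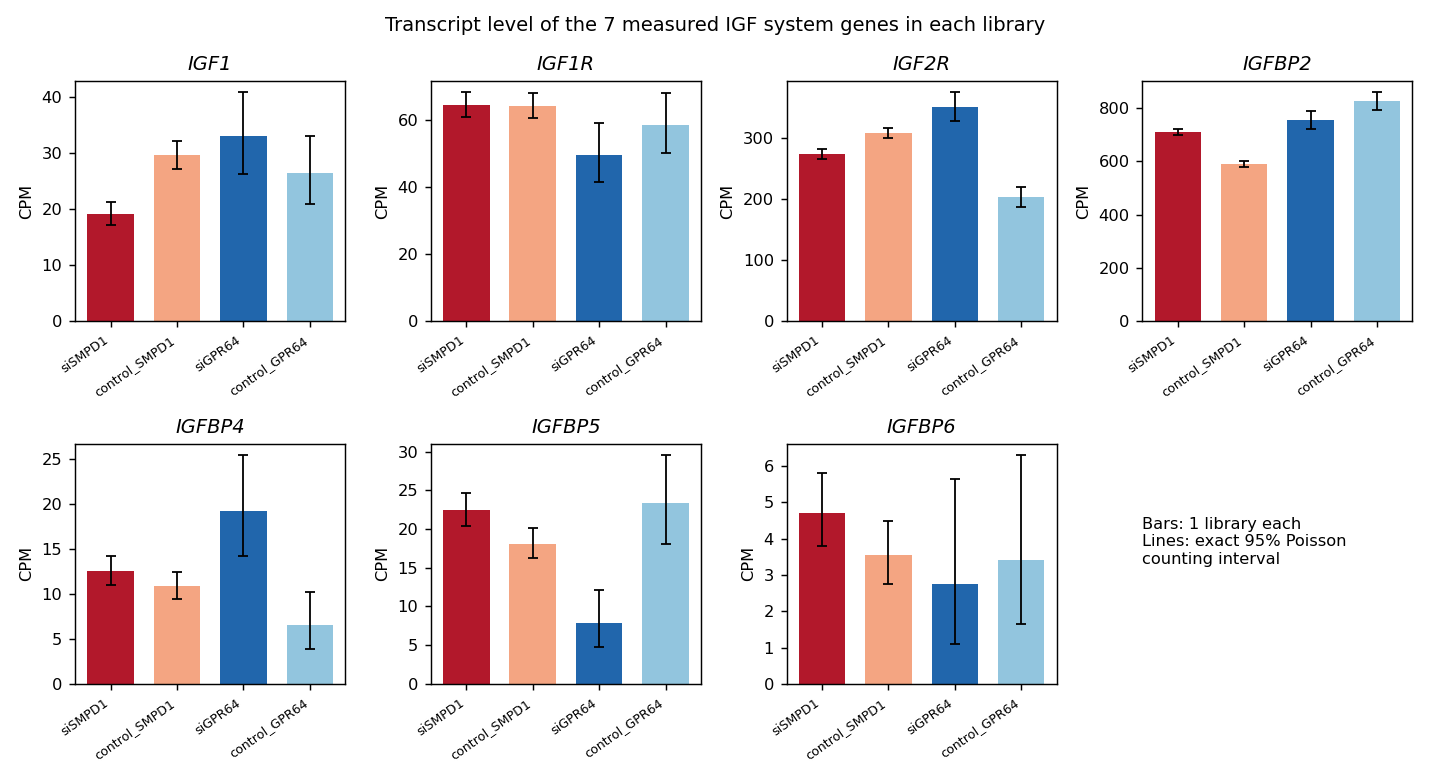
Scaled counts (CPM, linear axes from 0) of the 7 measured IGF system genes, 1 bar per library, with lines for the exact 95% Poisson counting interval. In siGPR64, IGFBP5 has its lowest value (7.83 CPM), and IGFBP4 (19.2 CPM) and IGF2R (350 CPM) have their highest; IGF1 is lowest in siSMPD1 (19.1 CPM).

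Of the receptors, IGF2R ranged more widely over the 4 libraries (0.79 in log2) than IGF1R (0.38). IGF2R stood at 273 CPM in siSMPD1, 308 in control_SMPD1, 350 in siGPR64 and 203 in control_GPR64. No counting interval of these 4 values overlapped another. It was 1.73-fold higher in siGPR64 than in control_GPR64 (1.55 to 1.92) and 1.13-fold lower in siSMPD1 than in control_SMPD1 (1.09 to 1.17). Against the other control the siGPR64 library was 1.14-fold higher (1.06 to 1.22) and the siSMPD1 library 1.35-fold higher (1.24 to 1.47). Control_GPR64 lay 1.52-fold below control_SMPD1 (1.39 to 1.65). The knockdown library was thus highest of the 4 and its paired control lowest.

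IGF1R, the signalling receptor, was at 64.5 CPM in siSMPD1 (1218 reads) and 64.3 CPM in control_SMPD1 (1235 reads). In the GPR64 pair it was at 49.8 CPM in siGPR64 and 58.6 CPM in control_GPR64. The log2 ratio was 0.01 in the SMPD1 pair (-0.11 to 0.12), a ratio between 0.927 and 1.09. In the GPR64 pair it was -0.23 (-0.58 to 0.10), and against control_SMPD1 the siGPR64 library was 1.29-fold lower (1.08 to 1.56). There were 7.04 IGF2R reads per IGF1R read in siGPR64 against 3.46 in control_GPR64, and 4.23 in siSMPD1 against 4.79 in control_SMPD1.

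The genes whose levels followed IGF2R most closely over the 4 libraries were DFFA, NCAM1, TMEM231, ST6GALNAC4 and PNMA1. They were ranked by the root mean square difference of log2 CPM centred on each gene's mean, among 9064 genes with at least 30 reads in each library. The difference was 0.0254 for DFFA and 0.0323 for PNMA1, the ends of the 5. IGF2R was used because its range over the libraries (0.788 in log2) was the widest among the 4 members with that many reads. The range of IGF1 was nearly the same (0.787). DFFA, an inhibitor of a caspase-activated DNase, was at 39.7 CPM in siSMPD1, 46.0 in control_SMPD1, 51.3 in siGPR64 and 30.8 in control_GPR64. With 4 points such a ranking describes these libraries alone.

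IGF1, the ligand that is mainly made by liver in the body and acts locally in many tumours, was the single ligand measured. It was at 19.1 CPM in siSMPD1 (360 reads), 29.5 in control_SMPD1 (567 reads), 32.9 in siGPR64 (84 reads) and 26.4 in control_GPR64 (77 reads). The siSMPD1 library was the lowest, and its interval (17.2 to 21.2 CPM) overlapped that of control_GPR64 alone, whose lower end was 20.8 CPM. IGF1 was 1.55-fold lower in siSMPD1 than in its paired control (1.35 to 1.77) and 1.38-fold lower than in control_GPR64 (1.07 to 1.77). In the GPR64 pair its log2 ratio was 0.32 with an interval of -0.14 to 0.78. The annotation places the non-coding RNA HELLPAR on the opposite strand over 82.4% of the exonic bases of IGF1. The strand setting of the counts is not stated, so reads of the 2 cannot be told apart.

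**Figure D3:**
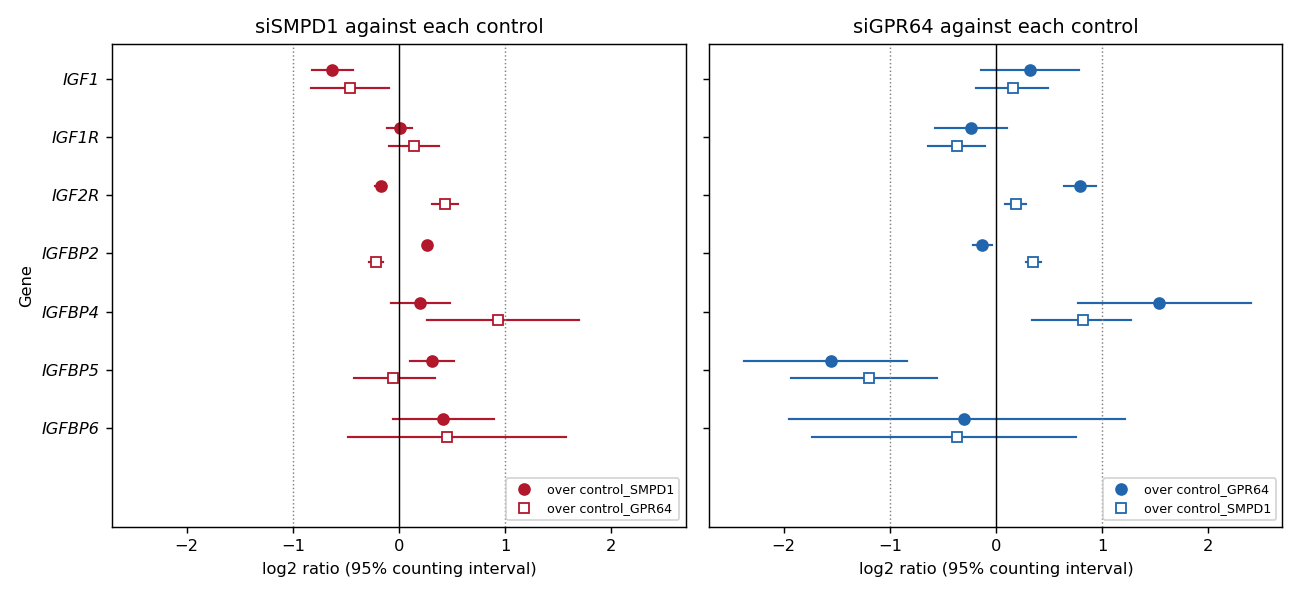
Log2 ratio of each measured IGF system gene in siSMPD1 (left) and siGPR64 (right) over the paired control (filled circles) and over the control of the other pair (open squares), with 95% counting intervals and dotted lines at 2-fold. IGFBP5 in siGPR64 is past -1 against both controls (-1.55 and -1.20), and IGFBP2 lies on opposite sides of 0 against the 2 controls in both panels.

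A rule of size was applied across all genes: the mean level had to reach 1 CPM, the ratio 2-fold, and the interval had to leave out a ratio of 1. In the SMPD1 pair none of the 7 measured members passed it, where 3.6% of 12749 measured genes did (2.49% higher, 1.11% lower). The member ratios ran from a log2 of -0.63 for IGF1 to 0.41 for IGFBP6, with a median of 0.20 against -0.00 over all measured genes. In the GPR64 pair 2 of 7 passed, IGFBP4 higher and IGFBP5 lower, where 11.7% of 12830 genes passed in either direction, 6.56% higher and 5.18% lower. The median of the members was -0.13 there, against 0.01 over all genes. Of the measured genes 93.1% had a smaller absolute ratio than IGFBP4 and 93.4% a smaller one than IGFBP5. Between control_GPR64 and control_SMPD1 none of the 7 members passed, where 15.4% of 12798 genes did (7.02% higher, 8.33% lower). Against the control of the other pair, siSMPD1 had none of 7 past the rule, where 18.5% of all genes passed (10.5% higher, 8.02% lower). Against control_SMPD1, siGPR64 had IGFBP5 alone past it, lower, where 11.4% of all genes passed (6.18% higher, 5.25% lower). With the 2 control libraries fitted together as if they were replicates, neither edgeR's quasi-likelihood test nor DESeq2 gave an adjusted p under 0.05 for any member in either knockdown. Over all 13664 genes, edgeR gave 0 in either knockdown and DESeq2 gave 1 in siSMPD1 and 0 in siGPR64, so these fits called almost nothing and say little of the members. By edgeR the member with the smallest unadjusted p was IGFBP5 in siGPR64.

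The rest of the pathway was read through 10 fixed gene lists that hold 166 genes beside the 10 members. In the SMPD1 pair 1 gene was higher and 2 were lower by the rule of size out of 133 measured, where 3.6% of all measured genes passed. In the GPR64 pair 7 were higher and 6 lower out of 133, where 11.7% of all passed. Neither count stands above the share over all genes. The median log2 ratios were 0.02 and 0.06, beside -0.00 and 0.01 over all genes. Of the 3 genes past the rule in siSMPD1, 2 passed in the same direction against control_GPR64, MEST and RPS6KB1. Of the 13 in siGPR64, 3 did against control_SMPD1, IGFBPL1, MEST and STC1, while PRSS23 passed in the opposite direction.

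Next come genes that act on the binding proteins. Of 8 measured proteases and inhibitors, 2 were higher, 2 lower and 4 short of the rule in siGPR64 (6.56% higher and 5.18% lower over all genes), and none of 8 passed in siSMPD1 (3.6% over all genes). PAPPA, the protease that cuts IGFBP4, was at 344 CPM in siSMPD1, 325 in control_SMPD1, 204 in siGPR64 and 149 in control_GPR64, and passed the rule in neither knockdown pair. STC2 and STC1 encode stanniocalcins, secreted proteins that inhibit PAPPA. STC2 was at 47.8 CPM in siGPR64 and 163 CPM in control_GPR64, a 3.41-fold lower level (2.8 to 4.21). STC1 was at 7.83 CPM in siGPR64 and 21.2 CPM in control_GPR64, 2.67-fold lower (1.62 to 4.74). Against control_SMPD1 the siGPR64 library was 5.24-fold lower for STC1 (3.39 to 8.67) and 1.57-fold lower for STC2 (1.3 to 1.9). In siSMPD1 the 2 genes stood in opposite directions against control_SMPD1, STC1 at 66.5 against 41.3 CPM and STC2 at 47.7 against 75.0 CPM. CTSD, the lysosomal aspartic protease cathepsin D, was 2.61-fold higher in siGPR64 than in control_GPR64 (2.27 to 3.01) and level with control_SMPD1, with a log2 ratio of -0.01. PRSS23, a secreted serine protease, was at 10.6 CPM in siGPR64, 2.74 in control_GPR64 and 25.7 in control_SMPD1. PAPPA was named after its values were seen.

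Downstream of the receptor, none of 20 measured receptor adaptors and none of 14 RAS and ERK genes passed the rule in either pair. Over all genes 3.6% passed in the SMPD1 pair and 11.7% in the GPR64 pair. The adaptors with the widest ratios in the GPR64 pair had few reads, DOK5 with 10 in siGPR64 against 4 in control_GPR64 and SHC2 with 2 against 6. The adaptor IRS1 was at 83.8 CPM in siGPR64 and 51.4 CPM in control_GPR64, and IRS2 at 360 and 437 CPM in the same libraries; both were named after their values were seen. INSR, the insulin receptor, likewise named, was at 21.0 CPM in siSMPD1, 19.99 in control_SMPD1, 33.7 in siGPR64 and 30.5 in control_GPR64.

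In the PI3K, AKT and mTORC1 list, 1 gene was higher and 1 lower of 28 measured in siSMPD1, beside 2.49% and 1.11% over all genes. In siGPR64 1 was higher and none lower of 27, beside 6.56% and 5.18% over all genes. RPS6KB1, which encodes the S6 kinase downstream of mTORC1, was at 30.5 CPM in siSMPD1 and 64.7 CPM in control_SMPD1, 2.12-fold lower (1.92 to 2.34). Against control_GPR64 it was 2.72-fold lower (2.34 to 3.17). PIK3IP1, an inhibitor of PI3K, was 2.3-fold higher in siSMPD1 (1.19 to 4.91) on 30 reads against 13. Its mean in that pair, 1.13 CPM, was just over the 1 CPM limit of the rule. Against control_GPR64 it was 1.16-fold higher in siSMPD1 (0.41 to 4.53), with equality inside the interval. PHLPP2, a phosphatase that acts on AKT, was 2.14-fold higher in siGPR64 than in control_GPR64 (1.58 to 2.94), with a log2 ratio of -0.23 against control_SMPD1.

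FOXO factors, which AKT keeps out of the nucleus, and their targets had 1 gene higher and 4 lower of 16 in siGPR64, beside 6.56% and 5.18% over all genes. None of 16 passed the rule in siSMPD1, beside 3.6% over all genes. GADD45A, a stress-induced growth arrest gene, was at 74.4 CPM in siGPR64 and 197 CPM in control_GPR64, FOXO3 at 23.1 and 49.3 CPM, and the mitophagy kinase gene PINK1 at 11.8 and 28.4 CPM. Control_SMPD1 had 37.9 CPM of GADD45A, 14.2 of FOXO3 and 10.8 of PINK1, below siGPR64 in each case. These 3 genes were thus lower in siGPR64 against its paired control and had log2 ratios of 0.97, 0.71 and 0.12 against the other control. The fourth lower gene was FOXO4, at 6.27 CPM in siGPR64 (16 reads), 14.4 in control_GPR64 (42 reads) and 6.77 in control_SMPD1. All 4 lower genes also passed the rule between the controls, higher in control_GPR64, beside 7.02% higher over all genes. Against control_SMPD1 none of 16 passed it in siGPR64, beside 11.4% over all genes. The single higher gene against the paired control was BCL2L11, which encodes the apoptosis promoter BIM. Both FOXO4 and BCL2L11 were named after their values were seen.

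None of the 10 measured genes in the list of IGF2 mRNA-binding proteins and IGF2 gene regulators passed the rule in either pair. The shares over all genes were 3.6% in the SMPD1 pair and 11.7% in the GPR64 pair. IGF2BP2, an RNA-binding protein named for binding IGF2 mRNA, was at 35.8 CPM in siSMPD1 and 67.6 CPM in control_SMPD1, 1.89-fold lower (1.72 to 2.08), and 2.87-fold lower against control_GPR64 (2.5 to 3.3). DICER1, the microRNA-processing enzyme, was 1.958-fold lower in siSMPD1 than in control_SMPD1 (1.86 to 2.06) and 1.12-fold lower against control_GPR64 (0.999 to 1.25). LIN28B, an RNA-binding protein that blocks let-7 processing and binds IGF2 mRNA, was at 13.5 CPM in siSMPD1, 9.11 in control_SMPD1, 78.0 in siGPR64 and 118 in control_GPR64. It separated the 2 pairs rather than knockdown from control, and control_GPR64 was 12.9-fold above control_SMPD1. Of 7 measured imprinted growth genes, 1 was lower by the rule in siSMPD1 (MEST), beside 1.11% over all genes. In siGPR64 2 of 7 were higher (MEST and KCNQ1OT1), beside 6.56% over all genes. MEST, which encodes a hydrolase-like protein expressed from the paternal allele, was at 11.02 CPM in siSMPD1, 34.8 in control_SMPD1, 74.0 in siGPR64 and 23.6 in control_GPR64. Against the paired control, the siSMPD1 library was 3.15-fold lower (2.7 to 3.7). The siGPR64 library lay 3.12-fold above its own control (2.37 to 4.19). KCNQ1OT1, the imprinted non-coding RNA of the domain next to IGF2, was 2.42-fold higher in siGPR64 (1.42 to 4.41), with a log2 ratio of -0.15 against control_SMPD1.

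Among IGF family genes outside the members, IGFBPL1, a binding-protein-like gene, passed the rule in siGPR64 on 9 reads against 2 in control_GPR64, a ratio of 4.27 (1.07 to 48.9). IGFBPL1 was 1 of 5 measured genes of that list in siGPR64, beside 6.56% higher over all genes. None of 4 measured genes passed in siSMPD1, beside 3.6% over all genes. The list for mannose 6-phosphate sorting, the route that IGF2R serves, had none of 14 past the rule in either pair. Over all genes 3.6% passed in the SMPD1 pair and 11.7% in the GPR64 pair. M6PR, the smaller mannose 6-phosphate receptor, was at 154 CPM in siGPR64 and 94.2 CPM in control_GPR64, 1.63-fold higher (1.4 to 1.91), and 1.71-fold higher against control_SMPD1 (1.53 to 1.91). FURIN, a proprotein convertase, was 1.65-fold higher in siGPR64 than in control_GPR64 (1.42 to 1.93). Among 14 genes of receptor ubiquitin ligases and trafficking none passed in either pair, beside the same 3.6% and 11.7% over all genes. NEDD4, a ubiquitin ligase, was 1.85-fold lower in siGPR64 (1.55 to 2.21) and 1.47-fold lower in siSMPD1 (1.37 to 1.58) than in the paired control.

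**Figure D4:**
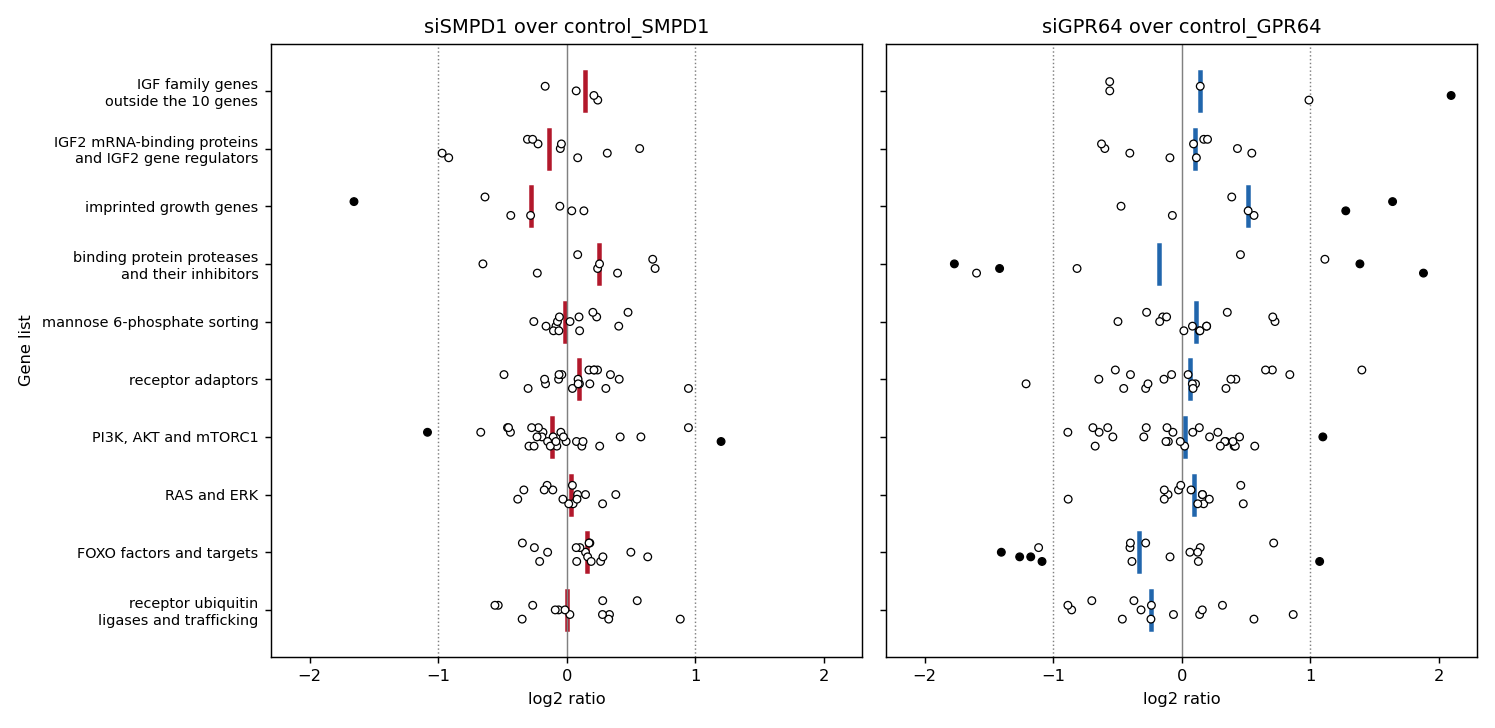
Log2 ratio of every measured gene of the 10 fixed lists in siSMPD1 over control_SMPD1 (left) and siGPR64 over control_GPR64 (right); each circle is a gene, filled where it passed the rule of size, coloured bars mark the list medians and dotted lines 2-fold. MEST lies at -1.66 on the left and at 1.64 on the right, and the binding protein proteases and inhibitors spread from -1.77 (STC2) to 1.88 (PRSS23) on the right.

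Marker lists of other cell types were checked for values that move with these results. Of 7 fibroblast markers, 4, 5, 4 and 5 reached 1 CPM in siSMPD1, control_SMPD1, siGPR64 and control_GPR64. The summed level of these markers was 1323 CPM in siSMPD1, 1018 in control_SMPD1, 854 in siGPR64 and 404 in control_GPR64. Control_GPR64, where it was lowest, had the lowest IGF2R and IGFBP4 but the highest IGFBP2 (826 CPM) and IGFBP5 (23.3 CPM). The counting interval of IGFBP5 in control_GPR64 held the 22.4 CPM of siSMPD1. The 10 skeletal muscle markers, 2 of them at 1 CPM or more in each library, summed to 191 CPM in siSMPD1, 199 in control_SMPD1, 128 in siGPR64 and 25.7 in control_GPR64, lowest in that same library. The part of any marker list in these results was not tested. Of 5 hepatocyte markers, ALB, SERPINA1 and TTR were at 0 in all 4 libraries. The 4 epithelial markers summed to 147, 180, 169 and 85.3 CPM in siSMPD1, control_SMPD1, siGPR64 and control_GPR64, so they too were lowest in control_GPR64. The 8 Ewing sarcoma markers summed to 4713, 3911, 3994 and 3254 CPM in the same order, again lowest in control_GPR64. The 5 endothelial markers summed to between 0.685 and 3.92 CPM.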

How the data were processed

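Ribosome-depleted total RNA from 4 A673 cultures went into paired-end libraries, per the labels' protocols. The deposited values are the authors' unnormalized counts of reads for each gene symbol. Tools listed, per the submitters' processing notes and without versions, are bcl2fastq, TopHat2, SAMtools and HTSeq, with the hg19 build. Which annotation, strand setting and counting mode were used is not stated there. The 5 HTSeq summary lines (36.5% to 44.8% of entries per library) were left out, so reads without a unique place add nothing to a gene.

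Counts were scaled with TMM factors (edgeR 4.0.16, R 4.3.3). For log2 ratios 0.5 count, weighted by library size, was added to each library. Their 95% intervals come from exact Clopper-Pearson limits on one library's part of a gene's reads; levels carry exact Poisson intervals. No molecular identifiers are named, so PCR copies may be counted, and intervals and limits cover counting error only. Which control belongs to which knockdown was read from the series text and the sample titles. The title of control_GPR64 names GPR64, while that of control_SMPD1 names no knockdown. RPKM used exon unions from GENCODE 29 (GRCh38). DESeq2 1.42.0 and edgeR's quasi-likelihood test served as alternatives, with adjusted p-values (Benjamini-Hochberg) over all 13664 genes fitted. The rule and the fits were tested on simulated counts. The intervals were computed with SciPy 1.17.1.

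The members and lists were chosen with earlier results of these data known. Named were all 10 members, SMPD1 and GPR64, up to 3 genes per list and pair past the rule of size (otherwise the 2 with the largest ratios), and the 5 genes most like the member with the widest range; not every gene so named is printed.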

Additional observations from a re-analysis of the deposited data

Results flagged for a closer look

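The 2 knockdown pairs share no library, so a gene's log2 ratio in the SMPD1 pair can be set against that in the GPR64 pair. For 3 members the ratios lay on opposite sides of 0 with counting intervals that excluded equality in both pairs. With 1 library per group the difference between the pairs was not tested; the intervals below cover counting error.

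IGFBP5 had a log2 ratio of 0.31 in the SMPD1 pair and -1.55 in the GPR64 pair, a difference of 1.86 (1.11 to 2.61). IGF2R had -0.17 and 0.79, a difference of -0.96 (-1.12 to -0.80). IGFBP2 had 0.26 and -0.13, a difference of 0.39 (0.30 to 0.48). For all 3 the sign in siSMPD1 was the other way round against control_GPR64 (IGFBP5 -0.06, IGF2R 0.43, IGFBP2 -0.22), and for IGFBP2 the sign in siGPR64 was so against control_SMPD1 (0.35).

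Among the genes of the fixed lists, MEST passed the rule of size in opposite directions in the 2 pairs. Its log2 ratio was -1.66 in the SMPD1 pair and 1.64 in the GPR64 pair, a difference of -3.29 (-3.75 to -2.84). Against the control of the other pair it was -1.10 in siSMPD1 and 1.09 in siGPR64, so both directions were kept.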

How the results depend on the processing

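No paired analysis was possible because each group holds 1 library and the labels carry no replicate numbers. The alternatives were scaling by DESeq2 size factors, upper quartiles or total counts, and a prior of 2 counts. All 84 combinations of a member ratio and a setting stayed inside the ratio's counting interval, with a largest shift of 0.07 in log2. The sign changed for IGFBP6 between the controls alone. The choice of control mattered more: of 14 member ratios, 7 left their interval and 4 changed sign against the control of the other pair. In siGPR64 the count of members past the rule of size, 2, was 1 with the other control, 0 at 3-fold, and 0 by edgeR's quasi-likelihood test and by DESeq2 with both controls as a group (1 and 0 members at an unadjusted p under 0.05). At 1.5-fold it was 3, with IGF2R added; in siSMPD1 the count of 0 became 1 (IGF1) and between the controls the count of 0 became 2 (IGF2R and IGFBP4). Neither test passed a member in siSMPD1. Both tests called almost nothing over all 13664 genes in either knockdown, so their outcomes for the members say nothing about stability in siSMPD1 or siGPR64. Filters on low counts changed no count of members. For the pathway lists, with alternatives chosen after seeing the data, 3 genes past the rule in siSMPD1 became 23 with the other control and 13 in siGPR64 became 16, of which 3 were shared in direction. The longest-transcript length, also chosen after seeing the data, left IGFBP2 and IGF2R first and second by RPKM in all 4 libraries. Depth limits IGF2, IGFBP3 and IGFBP7 to statements about detection and leaves the IGFBP6 ratio of the GPR64 pair with a wide interval.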
